A study of Mus musculus with 16 samples.

Results

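Mitochondrial apoptosis is run by a small set of proteins that decide whether the outer mitochondrial membrane is opened and what follows once it is. The transcripts of 9 of these genes are described here in the hippocampus of young mice. They are the prosurvival genes *Bcl2* and *Bcl2l1* (BCL-XL), the pore-forming effectors *Bax* and *Bak1*, the BH3-only genes *Bcl2l11* (BIM), *Bad* and *Bid*, and the apoptosome genes *Apaf1* and *Casp9*. Members were taken by gene symbol or gene identifier, not by their values, and make up 9 of the 17567 named genes on the array. They are read by 25 of its 25697 probes. All 9 genes have at least 1 probe above background, and 17 of the 25 probes passed the filter on dim probes over all arrays. The 8 others, 4 of *Bcl2*, 2 of *Bcl2l11* and 2 of *Casp9*, were at background on every array and are not described further.

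BAX and BAK are held in check by BCL2 and BCL-XL. BH3-only proteins relay stress signals by binding the prosurvival proteins, and some of them also bind the effectors directly. When BAX or BAK open the membrane, cytochrome c leaves the mitochondrion and assembles with APAF1 into the apoptosome, where procaspase-9 becomes active and then cleaves the executioner caspases. In the rodent brain this route removes surplus neurons in the period around birth, and mature neurons are known to be much harder to drive into apoptosis.

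Hippocampal RNA came from 16 mice, 4 in each group, with 1 array per mouse. *Mef2c*-het mice carry 1 conventional *Mef2c* allele that lacks exon 2 and 1 intact allele in every cell, on a C57BL/6J background, and the labels call them KO. WT mice are littermates with intact alleles. Both genotypes were sampled at postnatal day 1 (P1) and day 30 (P30), untreated as far as the labels say, and no sex, litter or chip is given. MEF2C is a transcription factor of neurons and muscle, and the study asks what its haploinsufficiency does in the brain. Each array, an Illumina MouseRef-8 v2 beadchip, gives a mean bead intensity per probe, used here as quantile-normalized log2 signal. A probe's level can be followed across mice but not set against that of another probe.

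*Mef2c* itself was read by a pair of probes above background. At P30 its log2 signal at probe ILMN_2887992 was 8.62, 8.59, 8.96 and 8.70 in the WT mice and 8.16, 8.42, 8.16 and 8.95 in the *Mef2c*-het mice. At this probe the array labelled *Mef2c*-het replicate 7 (8.95) thus lies among the WT arrays while the others of its group lie below all of them. Probe ILMN_2732465 differs, at 9.61, 9.80, 9.80 and 9.62 in WT and 9.20, 9.76, 8.97 and 9.92 in *Mef2c*-het mice. There replicate 5 (9.76) lies inside the WT range and replicate 7 (9.92) above it. The difference at probe ILMN_2887992 was -0.29 ± 0.17 (log2, SE, n = 4 and 4; adjusted p = 0.976), and at probe ILMN_2732465 it was -0.24 ± 0.19 (adjusted p = 0.976). At P1 both probes were within 0.07 of zero. Where these probes lie relative to exon 2 is not given in the sources used here, so they do not check the deletion. Within each age the arrays were cut by their correlation into a larger and a smaller cluster. The number of clusters was set beforehand, so the split itself is not a result. WT replicates 6 and 7 and *Mef2c*-het replicate 7 at P30, and replicate 8 of both genotypes at P1, had a 5th percentile of intensity of 140 to 161.4, against 105.8 to 130.8 on the other arrays. Of 9 hippocampal markers, 6 had a probe above background, *Prox1* and *Wfs1* among them, and their summed intensity was 8772 to 11465 at P30 and 3031 to 4092 at P1. The markers split in direction. From P1 to P30, 3 of the 6 rose and 2 fell in WT, and 3 rose and 3 fell in *Mef2c*-het mice.

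Between P1 and P30 the machinery moved mostly downward. By their main probe, the brightest one that passed the filter, 7 of the 9 genes fell in WT hippocampus (*Bcl2l11*, *Bax*, *Bcl2*, *Apaf1*, *Bad*, *Bid* and *Casp9*), 1 rose (*Bcl2l1*) and 1 did not pass the test (*Bak1*). In *Mef2c*-het hippocampus the same 7 genes fell and none rose. Counted over probes, P30 was lower at 11 of 17 and higher at 1 in WT, and lower at 11 and higher at 0 in *Mef2c*-het mice. Both counts of falls include *Bcl2l11* ILMN_2590638, which passed the filter only through its P1 arrays. Among all 14777 probes tested, 31.7% fell and 28.0% rose by the same threshold in WT, and 31.4% fell and 26.9% rose in *Mef2c*-het mice, so that a change with age was common on the array. The median log2 fold change of the members' main probes was -0.30 in WT and -0.59 in *Mef2c*-het mice, beside -0.03 and -0.02 over all probes. Both member medians are the value of the *Bid* main probe, whose fall was not shown to differ between the genotypes. Taken per probe, the *Mef2c*-het change minus the WT change had a median of -0.13 over the main probes and -0.01 over all probes. The groups did not overlap at 11 of 17 member probes in WT and 10 of 17 in *Mef2c*-het mice, against 53.1% and 52.5% of all probes. These counts too include *Bcl2l11* ILMN_2590638, whose separation was favoured by the filter. Ages differ in cell make-up as well as in gene activity, and in bulk tissue fewer cells of a type and less RNA per cell cannot be told apart.

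**Figure D1:**
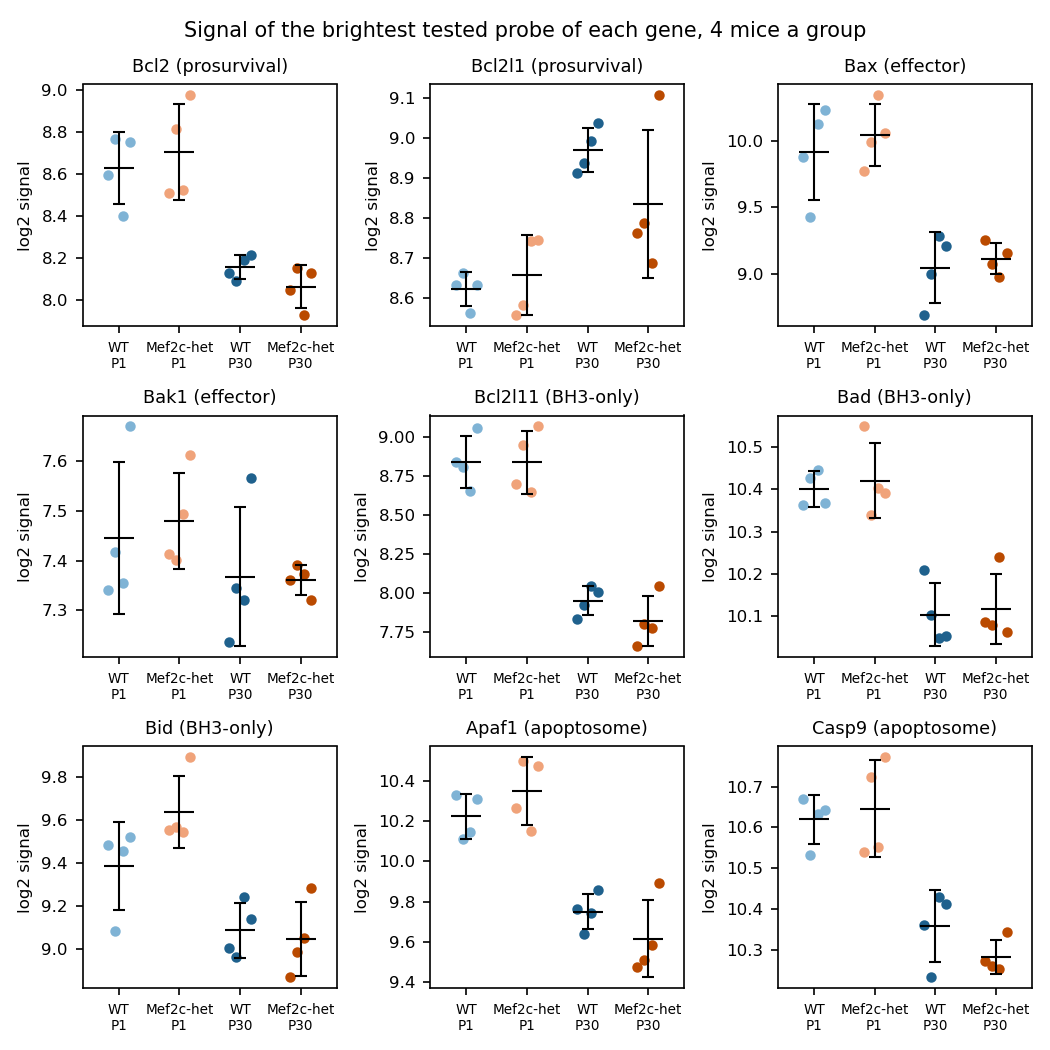
Log2 signal (quantile normalized over 16 arrays) of the main probe of each gene in every mouse, with 4 points per group, the group mean as a horizontal bar and its SD as whiskers; each panel has its own scale. *Bcl2l11*, *Bax*, *Bcl2*, *Bad*, *Casp9* and *Apaf1* separate the ages completely in both genotypes. *Bcl2l1* is the one gene that lies higher at P30, with ages that overlap in *Mef2c*-het mice. *Bak1* and *Bid* overlap between the ages in WT.

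*Bcl2*, the founding prosurvival gene of the family, was lower at P30. The 4 WT mice read 8.59, 8.76, 8.40 and 8.75 (log2 signal, probe ILMN_1249366) at P1 and 8.13, 8.09, 8.19 and 8.22 at P30. In *Mef2c*-het mice the values were 8.51, 8.81, 8.53 and 8.97 at P1 and 8.05, 8.15, 7.93 and 8.13 at P30. No mouse at P30 reached the lowest P1 mouse of its genotype. *Bcl2* fell by 0.47 ± 0.10 on the log2 scale in WT (1.39-fold; adjusted p = 8.25e-04) and by 0.64 ± 0.10 in *Mef2c*-het mice (1.56-fold; adjusted p = 4.85e-05). The 3 other *Bcl2* probes above background pointed the same way. Probe ILMN_2706514 fell by 0.37 and 0.58, ILMN_1249021 fell by 0.74 and 0.57 with ages that overlap in both genotypes, and ILMN_2682162 fell by 0.19 in WT but was at -0.14 in *Mef2c*-het mice (adjusted p = 0.0537). That last value passed the threshold under normexp background correction (-0.42; adjusted p = 0.0196), with no filter (adjusted p = 0.0484) and with trend and robust variance (adjusted p = 0.0497).

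*Bcl2l1* went the other way. BCL-XL, its long splice form, is the prosurvival protein most associated with mature neurons. In WT the main probe, ILMN_2698430, read 8.63, 8.66, 8.56 and 8.63 at P1 and 8.91, 8.94, 8.99 and 9.04 at P30, with no overlap. It rose by 0.35 ± 0.08 (log2, SE, n = 4 and 4; 1.27-fold; adjusted p = 1.22e-03). In *Mef2c*-het mice it read 8.56, 8.58, 8.74 and 8.74 at P1 and 8.76, 8.79, 8.69 and 9.11 at P30. At P30 replicate 7 lies far above the other three, which lie around the upper P1 values, and the difference of 0.18 ± 0.08 missed the threshold (adjusted p = 0.064). With the array clusters as a block it was 0.20 (adjusted p = 0.0105), and without *Mef2c*-het replicate 6 at P30 it was 0.23 (adjusted p = 0.0267). Without replicate 7 it was 0.089 (adjusted p = 0.249). The remaining probes gave smaller differences: 0.22 in WT (adjusted p = 0.0575) and -0.01 in *Mef2c*-het mice at ILMN_2647885, and 0.14 and 0.10 at ILMN_2742557, none past the threshold. The WT value of ILMN_2647885 passed with the array clusters as a block (0.19; adjusted p = 0.04), with trend and robust variance (adjusted p = 0.0486) and in 3 of 16 fits that left out an array. The arrays do not say which splice form any of these probes reads.

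RefSeq gives *Bcl2l1* several starts on chromosome 2 (GRCm38.p6, minus strand). The pair of upstream windows that hold a searched motif are shown because *Bcl2l1* is the member that rose. Each window is the 250 bases before a start, 5′ to 3′ on the gene's strand. In the first, at chr2:152830718-152830967, capitals mark the E2F letters TTTCGCGC on the opposite strand, 145 to 138 bases before the start, and in the second, at chr2:152831729-152831978, capitals mark a match to the MEF2 consensus, which reads the same on both strands, 238 to 229 bases before the start.
*Bcl2l1* start at the first window: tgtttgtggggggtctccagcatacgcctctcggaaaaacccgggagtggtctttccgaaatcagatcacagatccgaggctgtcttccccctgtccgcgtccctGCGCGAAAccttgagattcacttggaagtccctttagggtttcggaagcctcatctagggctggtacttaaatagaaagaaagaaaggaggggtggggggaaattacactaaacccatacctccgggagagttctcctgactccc
*Bcl2l1* start at the second window: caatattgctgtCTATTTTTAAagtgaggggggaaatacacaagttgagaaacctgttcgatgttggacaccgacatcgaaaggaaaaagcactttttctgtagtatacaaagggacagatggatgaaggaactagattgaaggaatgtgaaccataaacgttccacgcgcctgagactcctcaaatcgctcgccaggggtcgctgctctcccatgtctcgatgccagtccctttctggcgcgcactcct
Over 32851 promoters, 0.256% hold TTTCGCGC and 2.92% hold a MEF2 consensus match on either strand. A match is a string of letters and not a measured binding site, and no binding was measured here. The third start, at chr2:152828490-152828739, holds no searched motif.

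Of the effectors, *Bax* fell and *Bak1* did not pass the test. *Bax*, whose protein moves from the cytosol to mitochondria when activated, read 9.88, 9.43, 10.13 and 10.23 at P1 and 8.68, 9.0, 9.28 and 9.21 at P30 in WT (probe ILMN_2907655). The *Mef2c*-het mice read 9.78, 9.99, 10.34 and 10.07 at P1 and 9.25, 9.07, 8.97 and 9.16 at P30. Every P30 value lies below every P1 value in both genotypes. The fall was 1.83-fold in WT (log2 -0.87 ± 0.17; adjusted p = 2.43e-04) and 1.91-fold in *Mef2c*-het mice (log2 -0.93 ± 0.17; adjusted p = 1.34e-04). *Bak1*, whose protein sits in the mitochondrial membrane throughout, has 1 dim probe, above background on 4 of 4 arrays in both P1 groups but on 2 of 4 WT and 3 of 4 *Mef2c*-het arrays at P30. Its change was -0.08 ± 0.08 in WT (adjusted p = 0.434) and -0.12 ± 0.08 in *Mef2c*-het mice (adjusted p = 0.233), with 95% confidence intervals of -0.25 to 0.10 and -0.29 to 0.06. These intervals end well above the changes of *Bax*, but the signal of a probe so near background understates a change.

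*Bcl2l11* fell about as far as *Bax* in WT without background correction. The order of these genes there turned with median scaling (-0.96 and -0.97) and inside the larger array cluster, given below. Under normexp background correction *Bcl2l11* was at -1.43 in WT, while *Bax* went no lower than -1.06 there under any alternative. BIM, its protein, is the BH3-only protein that neurons deprived of growth factors induce. Probe ILMN_3157568 read 8.84, 8.81, 8.66 and 9.06 in WT at P1 and 7.83, 7.92, 8.05 and 8.0 at P30. In *Mef2c*-het mice it read 8.70, 8.95, 8.65 and 9.07 at P1 and 7.66, 7.80, 7.77 and 8.05 at P30. The gap between the ages is wider than the whole spread within any group. The fall was 1.85-fold in WT (log2 -0.89 ± 0.11; adjusted p = 2.05e-06) and 2.03-fold in *Mef2c*-het mice (log2 -1.02 ± 0.11; adjusted p = 4.36e-07). A dimmer probe, ILMN_2590638, read 7.64 to 7.77 in WT at P1, above background on 4 of 4 arrays, and 7.20 to 7.34 at P30, above background on 0 of 4. The mean WT P1 signal of this probe was 1.29-fold above the mean of the lowest signals called above background on the WT P30 arrays. This bound takes no account of the spread between mice and was not itself tested. The measured WT difference was -0.44 ± 0.07 (adjusted p = 6.51e-05 by limma). This probe passed the filter only through its P1 arrays, which favoured a fall, so neither its p-values nor the bound is support for one. In *Mef2c*-het mice it was above background on 4 of 4 arrays at P1 and 1 of 4 at P30, so that its measured difference of -0.44 ± 0.07 (adjusted p = 6.11e-05) also rests mostly on P30 signals at background.

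The window before the more upstream of the *Bcl2l11* starts, at chr2:128125788-128126037 on the plus strand, is shown because *Bcl2l11* had the lowest log2 fold change of the main probes with all arrays quantile normalized. Capitals mark the FOXO letters GTAAACA, 227 to 221 bases before the start, which lie apart from every other motif searched.
*Bcl2l11* start at the upstream window: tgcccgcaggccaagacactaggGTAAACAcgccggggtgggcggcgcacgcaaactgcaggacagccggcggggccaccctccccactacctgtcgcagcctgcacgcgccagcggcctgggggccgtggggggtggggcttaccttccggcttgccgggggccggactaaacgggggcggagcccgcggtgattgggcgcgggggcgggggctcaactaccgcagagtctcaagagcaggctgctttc
GTAAACA is held by 3.17% of all promoters on either strand. The window is 72.0% G or C, beside 53.2% and 47.6% in the *Bcl2l1* windows above and a median of 52.4% over all promoters. The SP1 letters GGGCGG, on either strand, occur in 8 of the 13 windows of the 9 genes and in 32.7% of all promoters. *Bcl2*, *Bcl2l11*, *Bax*, *Bad*, *Bid*, *Casp9* and *Apaf1* hold them, and *Bcl2l1* and *Bak1* do not. CCAAT occurs in 3 of the 13 windows, of *Bcl2l11* and *Bad*, and in 33.8% of all promoters, and TTTGGCGC in none of them and in 0.417% of all.

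The other BH3-only genes fell by less. *Bad*, whose protein is kept away from mitochondria by 14-3-3 proteins while growth factor signalling lasts, read 10.36 to 10.45 at P1 and 10.05 to 10.21 at P30 in WT, and 10.34 to 10.55 and 10.06 to 10.24 in *Mef2c*-het mice (probe ILMN_1216802). The ages do not overlap in either genotype. It fell by 0.30 ± 0.06 in both (adjusted p = 4.92e-04 in WT and 4.24e-04 in *Mef2c*-het mice), although with the arrays scaled by their medians the *Mef2c*-het value of -0.37 missed the threshold (adjusted p = 0.058).

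*Bid*, which links death receptors to mitochondria once cleaved by caspase-8, fell in both genotypes at its main probe, ILMN_3161878. WT mice read 9.48, 9.08, 9.46 and 9.52 at P1 and 9.01, 8.96, 9.24 and 9.14 at P30. The *Mef2c*-het mice read 9.55, 9.57, 9.54 and 9.89 at P1 and 8.87, 8.99, 9.05 and 9.28 at P30. In WT the ages overlap through replicate 4 at P1, and in *Mef2c*-het mice they do not. The fall was 0.30 ± 0.11 in WT (adjusted p = 0.0314) and 0.59 ± 0.11 in *Mef2c*-het mice (adjusted p = 2.58e-04). The WT call was lost when any one of P1 replicates 1, 5 and 8 or P30 replicates 2 and 3 was left out (adjusted p = 0.0726 to 0.0862). A second *Bid* probe, ILMN_2757287, was above background on 2 of 4 arrays in every group and was at -0.01 and 0.02.

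Both apoptosome genes fell. *Apaf1* encodes the scaffold that cytochrome c assembles, and *Casp9* the caspase that it activates. At probe ILMN_3143577 *Apaf1* read 10.33, 10.11, 10.15 and 10.31 at P1 and 9.77, 9.64, 9.74 and 9.86 at P30 in WT, and 10.27, 10.50, 10.15 and 10.48 at P1 and 9.47, 9.51, 9.58 and 9.89 at P30 in *Mef2c*-het mice. No P30 value reached a P1 value of its genotype. The fall was 0.47 ± 0.10 in WT (1.39-fold; adjusted p = 5.56e-04) and 0.73 ± 0.10 in *Mef2c*-het mice (1.66-fold; adjusted p = 7.35e-06). Its probes disagree in WT. ILMN_1228561 stayed at -0.03 ± 0.07 there (adjusted p = 0.741) but fell by 0.26 ± 0.07 in *Mef2c*-het mice (adjusted p = 5.05e-03). *Casp9* read 10.53 to 10.67 at P1 and 10.23 to 10.43 at P30 in WT, and 10.54 to 10.77 and 10.25 to 10.34 in *Mef2c*-het mice (probe ILMN_1217061), without overlap. It fell by 0.26 ± 0.06 (adjusted p = 2.37e-03) and by 0.36 ± 0.06 (adjusted p = 1.38e-04).

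**Figure D2:**
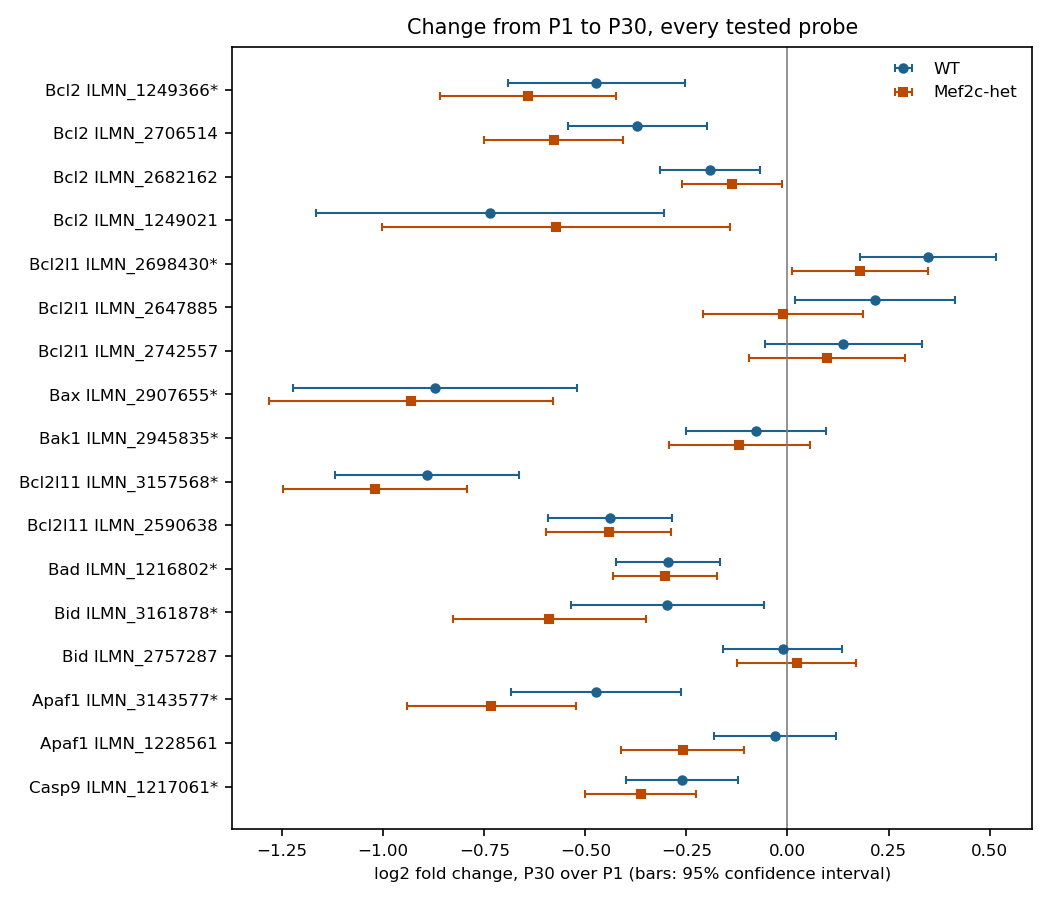
Log2 fold change from P1 to P30 of each of the 17 tested probes in WT (circles) and *Mef2c*-het mice (squares), with 95% confidence intervals; an asterisk marks the main probe of a gene. Values run from -0.89 to 0.35 in WT and from -1.02 to 0.18 in *Mef2c*-het mice. In WT the *Bcl2l1* main probe is the one probe past the threshold above zero, and in *Mef2c*-het mice none is.

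The age differences were also taken inside each array cluster. In the larger cluster (3 WT arrays at P1 and 2 at P30) and in the smaller one (1 and 2), the WT differences were -0.89 and -1.03 for *Bcl2l11*, -0.97 and -0.98 for *Bax*, and 0.31 and 0.38 for *Bcl2l1*. In *Mef2c*-het mice the larger cluster (3 arrays at each age) gave -1.02 for *Bcl2l11*, -0.94 for *Bax* and 0.12 for *Bcl2l1*. In it and in the larger WT cluster all 9 main probes kept their sign. The smaller clusters have 1 array at P1, and in *Mef2c*-het mice 1 at P30 as well, so that their differences carry no replicate check. The exact permutation test on single probes gave two-sided p = 0.0286 wherever the ages did not overlap, which is the smallest value that 4 against 4 mice allow, and p = 0.0857 for *Bid* in WT.

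Among 70 other genes of the pathway, 66 were on the array and 45 had a probe above background, of which 11 rose, 16 fell and 18 did not pass the test in WT, while 13 rose, 15 fell and 17 did not pass in *Mef2c*-het mice. Over all probes 28.0% rose and 31.7% fell in WT, and 26.9% rose and 31.4% fell in *Mef2c*-het mice. The medians were -0.09 and -0.01 on the log2 scale. Falls were commonest among the other caspases and their adaptors, where 6 of 7 tested genes fell in both genotypes (median log2 fold change -0.73 in WT and -0.63 in *Mef2c*-het mice). Only 4 of these 7 passed the filter on the P30 arrays alone, so the others were tested through their P1 signal. *Casp2*, an initiator caspase, fell by 1.39 ± 0.11 on the log2 scale in WT (adjusted p = 9.22e-09) and *Casp6*, an executioner, by 0.98 ± 0.08 (adjusted p = 1.08e-08).

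Prosurvival family members split in direction, as *Bcl2* and *Bcl2l1* did. *Bcl2l2* (BCL-W) rose by 1.63 ± 0.09 on the log2 scale in WT, from 10.32 to 10.67 at P1 to 12.15 to 12.29 at P30 (adjusted p = 1.05e-10), and by 1.68 in *Mef2c*-het mice. *Mcl1*, by contrast, fell by 0.80 ± 0.14 in WT (adjusted p = 8.20e-05) and 0.70 in *Mef2c*-het mice. *Bbc3* (PUMA), a BH3-only target of p53, fell by 1.19 ± 0.07 in WT (adjusted p = 2.28e-10). *Trp53*, encoding p53, fell by 0.89 ± 0.11 (adjusted p = 1.70e-06), and *Birc5*, encoding survivin, a caspase inhibitor family member that acts in cell division, fell by 1.84 ± 0.10 (adjusted p = 9.37e-11). Of the proteins released from mitochondria, *Cycs* (cytochrome c) rose by 0.37 ± 0.07 (adjusted p = 3.82e-04) and *Diablo*, which relieves caspase inhibition, fell by 0.89 ± 0.10 (adjusted p = 7.48e-07). *Xiap*, the direct caspase inhibitor, had no probe that passed the filter. The largest other rises in WT were those of *Mapk10* and *Mapk9*, stress kinases of the JNK group, by 0.98 ± 0.14 and 0.61 ± 0.07 (adjusted p = 1.34e-05 and 5.29e-07), and of *Ywhah*, a 14-3-3 protein, by 0.97 ± 0.06 (adjusted p = 6.55e-10).

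**Figure D3:**
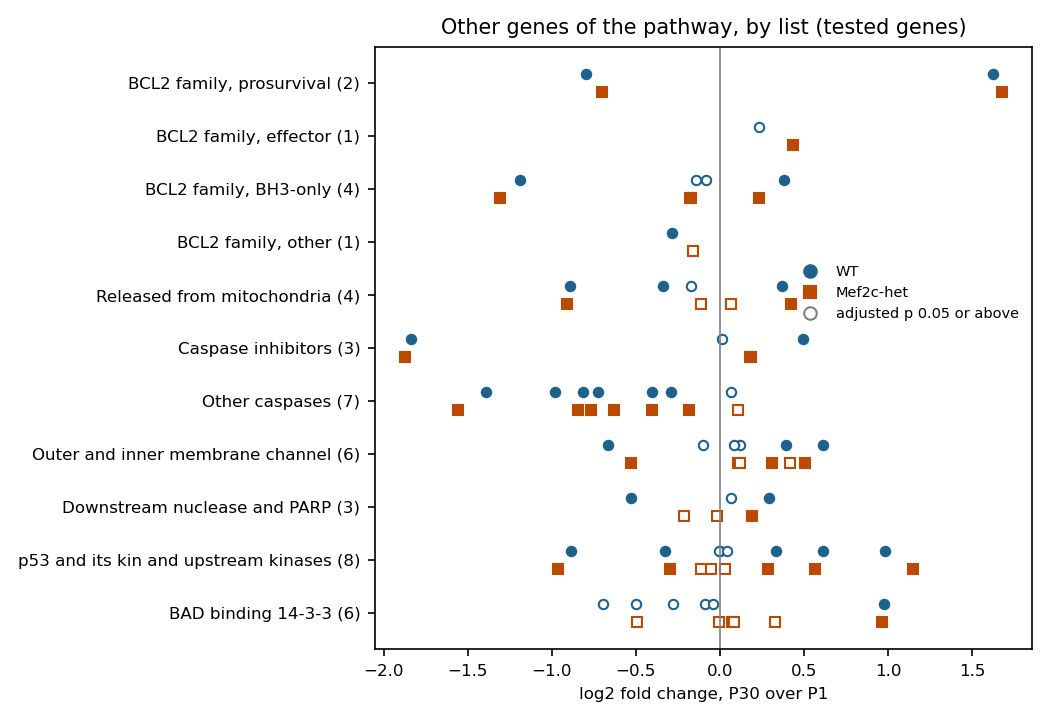
Log2 fold change from P1 to P30 of the 45 other pathway genes with a tested probe, by list (number of tested genes in brackets), in WT (circles) and *Mef2c*-het mice (squares); open symbols are genes at adjusted p of 0.05 or above. In the list of other caspases 6 of 7 genes are lower in both genotypes, and the prosurvival pair *Mcl1* and *Bcl2l2* lie on opposite sides of it.

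Markers of other cell types moved with age too. Summed intensity over 5 measured markers of proliferating cells was 2676 to 3195 in WT at P1 and 770 to 831 at P30, and all 5 fell. Only 2 of these 5 passed the filter on the P30 arrays alone. The others were tested through their P1 signal, and their part of the P30 sum is at or near background. Over 5 markers of immature neurons it went from 15689 to 20483 down to 1241 to 1658, and all 5 fell in WT, *Dcx* among them. Over 6 markers of mature neurons it went from 6851 to 9292 up to 37827 to 41559, and over 7 of oligodendrocytes from 1872 to 2351 up to 92302 to 101089, with every measured marker higher in WT. On the P1 arrays alone, 5 of the 6 and 5 of the 7 passed the filter. In WT astrocyte markers rose at 7 of 8 genes, microglial markers rose at 9 of 12, endothelial markers fell at 3 of 5 and blood markers fell at 2 of 3. In *Mef2c*-het mice the same counts were 7 of 8, 12 of 12, 4 of 5 and 0 of 3, and markers of proliferating cells and of immature neurons fell at 4 of 5 each, while those of mature neurons rose at 5 of 6. The sum of 4 choroid plexus markers ranged from 1163 to 31403 over the arrays and 1 of the 4 rose. Sums in *Mef2c*-het mice were of the same order, from 2662 to 3151 and 793 to 892 for proliferating cells and from 17151 to 21130 and 1188 to 1892 for immature neurons. The part of these changes in the members' falls was not tested.

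Likeness of pattern over the 16 arrays followed the age split. The probes of other genes that correlated best with the *Bcl2l11* main probe were those of *Trp53* (Pearson r = 0.991), *Pan2* (0.987), *Tmem131l*, *Vrk1* and *Csnk1e* (each 0.986). With the *Bcl2l1* main probe they were *Gal3st3* (r = 0.951), *Arrb1* (0.948), *Ntm* (0.942), *Gria3* (0.94) and *Bin1* (0.939). All 16 points share the division into P1 and P30, so that probes with a clear age change in the same direction tend to correlate highly. No p-value is given.

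*Mef2c* heterozygosity moved none of the 9 genes past the threshold at P30. Of 16 member probes tested, 0 had an adjusted p under 0.05, as against 1 of 13413 probes in all (0.00746%), and 0 had an unadjusted p under 0.05, as against 2.36% of all. No member probe separated the genotypes, where 1.75% of all probes did. Log2 differences (*Mef2c*-het over WT) ran from -0.21 to 0.23, with a median of -0.08 over the main probes beside -0.01 over all probes. For *Bcl2l11* the difference was -0.13 ± 0.09 (95% confidence interval -0.32 to 0.07), and for *Apaf1* it was -0.13 ± 0.10 (-0.35 to 0.08). For *Bcl2l1* it was -0.13 ± 0.09 (-0.33 to 0.07), and for *Bcl2* -0.09 ± 0.07 (-0.24 to 0.06). *Bax* was at 0.07 ± 0.12, with the widest interval of the main probes, -0.21 to 0.34. *Casp9* was at -0.08, *Bid* at -0.04, *Bad* at 0.01 and *Bak1* at -0.01. The intervals of all 9 main probes include zero, and in signal they exclude a change of the size that age brought to *Bcl2l11* and *Bax*. *Bak1* was above background on 2 of 4 WT and 3 of 4 *Mef2c*-het arrays at P30. Signal so near background understates a change, so the *Bak1* interval does not exclude one of that size in the transcript.

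The array labelled *Mef2c*-het replicate 7 decides part of this. Without it, 4 of 15 member probes had an unadjusted p under 0.05, where 10.3% of all probes did, and the adjusted p of each was 0.476. All of them were lower in *Mef2c*-het mice: a pair of *Bcl2l1* probes, ILMN_2647885 by -0.31 ± 0.08 and ILMN_2698430 by -0.22 ± 0.07, *Apaf1* by -0.23 ± 0.07 and *Bcl2l11* by -0.20 ± 0.08 (log2, SE, n = 3 and 4). In every one of these 4 probes the remaining *Mef2c*-het mice lie lower than replicate 7. Within the larger array cluster (3 *Mef2c*-het and 2 WT arrays) the differences were -0.17 for *Bcl2l1*, -0.18 for *Apaf1* and -0.13 for *Bcl2l11*, and within the smaller one (replicate 7 against 2 WT arrays) they were 0.09, 0.10 and 0.02.

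At P1 the genotypes did not differ past the threshold either. Of 17 member probes, 0 had an adjusted p under 0.05, and 0% of all 13566 probes did, and 0 had an unadjusted p under 0.05, as did 1.62% of all. Log2 differences ran from -0.05 to 0.25, with a median of 0.04 over the main probes and 0.00 over all. *Bid* stood out. After normalization of the P1 arrays alone its main probe read 9.53, 9.13, 9.50 and 9.57 in WT and 9.60, 9.62, 9.59 and 9.94 in *Mef2c*-het mice. Every *Mef2c*-het value lies above every WT value, 3 of them only just, and this was 1 of 17 member probes without overlap, against 1.29% of all probes. The difference was 0.25 ± 0.12 (95% confidence interval -0.01 to 0.52; unadjusted p = 0.0563, adjusted p = 1.0, both by limma). The exact permutation test gave p = 0.0286, two-sided and unadjusted. The gap rests on 1 low WT mouse, replicate 4, and 1 high *Mef2c*-het mouse, replicate 8. The main probes of the 8 other genes were between 0.00 and 0.13, *Bax* (0.13 ± 0.18) and *Apaf1* (0.12 ± 0.09) being the highest.

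**Figure D4:**
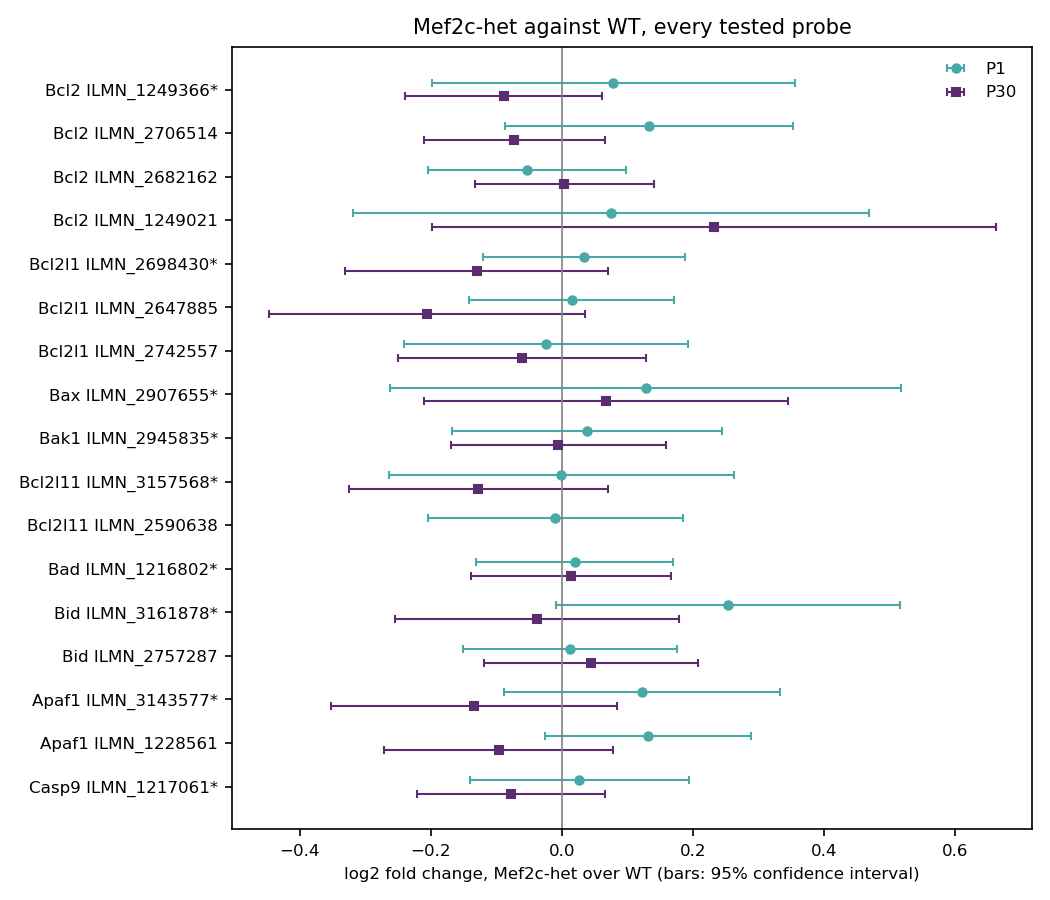
Log2 fold change of *Mef2c*-het over WT for each member probe at P1 (circles) and P30 (squares), with 95% confidence intervals; an asterisk marks the main probe. *Bcl2l11* probe ILMN_2590638 has no P30 point because it was not above background on enough P30 arrays. Every interval includes zero.

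The change of the genotype effect between the ages was tested as an interaction over all 16 arrays. None of the 17 member probes passed the adjusted threshold, and 0% of all 14777 probes did. One, *Apaf1* ILMN_1228561, had an unadjusted p under 0.05, as did 2.96% of all probes. Its log2 genotype difference was 0.23 ± 0.10 lower at P30 than at P1 (difference of differences -0.23, 95% confidence interval -0.44 to -0.02; unadjusted p = 0.0373, adjusted p = 0.998). The values behind it were 8.21, 8.19, 8.24 and 8.31 in WT and 8.25, 8.42, 8.33 and 8.47 in *Mef2c*-het mice at P1, and 8.27, 8.25, 8.22 and 8.10 in WT and 8.02, 8.14, 8.0 and 8.29 in *Mef2c*-het mice at P30. The groups overlap at both ages. The other *Apaf1* probe gave -0.26 ± 0.14 and the *Bid* main probe -0.29 ± 0.16 (adjusted p = 0.998 for each). So the larger age falls of *Bid* and *Apaf1* in *Mef2c*-het than in WT mice, given above, were not shown to differ between the genotypes. Without *Mef2c*-het replicate 7 at P30, 5 of 17 member probes had an unadjusted p under 0.05, both of *Apaf1*, 2 of *Bcl2l1* and 1 of *Bid*, where 6.39% of all probes did, at an adjusted p of 0.756 each.

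Genotype left the wider pathway without a called gene as well. At P30, 1 of 41 tested genes had an unadjusted p under 0.05, as did 2.36% of all probes, and at P1 3 of 43 did, beside 1.62% of all probes, with 0 after adjustment at either age. The medians were 0.03 and -0.01 on the log2 scale.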

How the data were processed

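Hippocampal RNA of 16 mice was hybridised to 1 array each. The authors deposited, per probe and array, a mean bead intensity that is not normalized, a detection p-value computed from the negative controls, the standard error between beads as an intensity and a bead count (median 36 to 39 beads per probe). Their methods state RNA integrity, log2 transformation and quantile normalization for P30 only; the labels name limma and lumi. Whether background was subtracted is not given in the sources used here.

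From these, intensities (lowest 92.8) were quantile normalized as log2 values, over the 8 arrays of an age for genotype and over all 16 for age and the interaction. Probes detected (p under 0.05) on 4 or more arrays of a fit were tested with limma 3.58.1 (R 4.3.3; lmFit, eBayes), with Benjamini-Hochberg adjustment over all tested probes and a threshold of 0.05. The ± values are standard errors. Intervals are 95% by limma. The main probe of a gene is its tested probe with the highest mean log2 signal. Exact permutation used all 70 splits of 8 arrays. Scripts were tested on simulated data. No label says that mice of a group are of separate litters, and the number of arrays limits the precision.

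Probe genes came from the deposited identifiers, updated through RefSeq tables (25376 of 25697 probes matched). Promoters are RefSeq's (GRCm38.p6); all 9 genes matched, with 13 starts.

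Members and lists were chosen with earlier results of these data known. All member probes were described. Other pathway genes named are *Mcl1*, *Trp53*, *Cycs*, *Xiap* and *Diablo*, and the 4 with the largest rise and the 4 with the largest fall in WT; a further gene of that rule is not reported here. For the members with the largest rise and fall, the 5 most correlated genes were named. Alternatives were normexp background correction, median scaling, other filters, trend and robust variance, blocks for array cluster or for replicate number, a single genotype fit over the 16 arrays, and omission of 1 array at a time.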

Additional observations from a re-analysis of the deposited data

Results flagged for a closer look

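Among 68 sets of 4 mice, one per group for each of 17 tested member probes, 5 held a mouse that stood apart from the other three by Dixon's test, where chance alone flags about 1 set in 20, or 3.4. *Bid* ILMN_3161878 gave 2 of them, both at P1. WT replicate 4 read 9.08 with its nearest neighbour at 9.46 (gap over range 0.853), and *Mef2c*-het replicate 8 read 9.89 with its nearest at 9.57 (0.927). The others were at P30. *Bcl2l1* ILMN_2742557 read 8.01 in WT replicate 6 and 7.72 in the next mouse (0.921), *Bad* ILMN_1216802 read 10.24 in *Mef2c*-het replicate 6 and 10.09 in the next (0.864), and *Bcl2* ILMN_2682162 read 7.50 in *Mef2c*-het replicate 3 and 7.39 in the next (0.839).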

How the results depend on the processing

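Member probes past the adjusted threshold numbered 12 in WT and 11 in *Mef2c*-het mice between the ages, and 11 to 13 and 9 to 12 under all alternatives. The genotype comparisons and the interaction stayed at 0 under each of them. Over all probes, adjusted calls at P30 were 1, and 0 under normexp, median scaling and the replicate block, and 0 to 1 with 1 array left out. At P1 they were 0, and 1 with the cluster block, 3 with the replicate block and 2 with all 16 arrays together. For the interaction they were 0, and 1 with the cluster block. Unadjusted p under 0.05 was met by 316 probes at P30 (159 under median scaling, 822 with no filter, 571 with the cluster block, 502 with the replicate block, 155 to 1367 with 1 array left out), 220 at P1 (75, 654, 426 and 949, 337 with all 16 arrays, and 108 to 444) and 438 for the interaction (224, 906 and 683 with the cluster block, and 283 to 941).

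Among member probes that count was 0 at P30, 1 with all 16 arrays, and 0 to 4 with 1 array left out. At P1 it was 0, and 1 with no filter, the cluster block or all 16 arrays, 2 with the replicate block, and 0 to 1 with 1 array left out. For the interaction it was 1, and 0 under median scaling or trend and robust variance, 2 with the cluster block, and 0 to 5 with 1 array left out.

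Some values changed sign. With age they were *Bid* ILMN_2757287 in WT under median scaling (0.0081) and *Bcl2l1* ILMN_2647885 in *Mef2c*-het mice with the cluster block (0.0188). At P30 they were *Bax* with the replicate block (-0.0368), *Bak1* under median scaling and the cluster block (0.0129 and 0.0094), and *Bad* and *Bid* with the cluster block (-0.010 and 0.0229). At P1 it was *Bcl2* with the replicate block (-0.0326). With 1 array left out, ranges that cross zero were -0.043 to 0.0247 for *Bid* ILMN_2757287 and -0.0515 to 0.0065 for *Apaf1* ILMN_1228561 (WT, age), -0.114 to 0.0821 for *Bcl2l1* ILMN_2647885 and -0.0254 to 0.0623 for *Bid* ILMN_2757287 (*Mef2c*-het, age), -0.050 to 0.145 for *Bax*, -0.0445 to 0.058 for *Bak1*, -0.029 to 0.0501 for *Bad* and -0.115 to 0.0187 for *Bid* (P30), and -0.0123 to 0.144 for *Bcl2*, -0.0787 to 0.0747 for *Bcl2l11*, -0.0355 to 0.232 for *Bax*, -0.0086 to 0.121 for *Bak1*, -0.023 to 0.0472 for *Bad* and -0.0137 to 0.0613 for *Casp9* (P1). The cause was not tested.

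Age calls that depended on a setting were those of *Bid* in WT, *Bad* and *Bcl2l1* in *Mef2c*-het mice, given above, and of dimmer probes. *Bcl2* ILMN_1249021 lost its call in *Mef2c*-het mice under median scaling (adjusted p = 0.0687) and in 4 of 16 fits that left out an array. Normexp made the falls of dim probes larger, as its subtraction of background does, to -1.43 in WT and -1.70 in *Mef2c*-het mice for *Bcl2l11* ILMN_3157568.

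No label says that a shared replicate number pairs mice. Deviations of same-numbered arrays correlated at 0.185, -0.532 and 0.708 at P30 and 0.09, 0.402 and 0.828 at P1. The values of 0.708 and 0.828 are between arrays with higher background, so within these pairs a pairing cannot be told apart from the array cluster. At P30, WT replicate 6 and *Mef2c*-het replicate 7, of unlike number but both with higher background, correlated at 0.729. The replicate block was run for the genotype comparisons only. No member had an adjusted call to lose in them, and the block added none.

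Probe signals near background, as for *Bak1* and *Bid* ILMN_2757287, understate differences. With 4 mice per group, small genotype differences cannot be separated from the spread between mice. The sources used here give no sex, litter, chip or probe sequence.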
